A study of Drosophila melanogaster with 6 samples.

Results

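The secretory pathway and unfolded protein genes are 36 genes of Drosophila melanogaster that serve protein entry into the endoplasmic reticulum (ER), folding there, and transport between the ER and the Golgi. They were taken from the count table by FlyBase symbol, and all 36 were found among its 17562 rows and passed the filter on low counts that left 10632 genes for testing. RNA-seq was carried out on whole third-instar larvae at the wandering stage, in 3 libraries of the control strain w1118 and 3 libraries of larvae homozygous for the null allele cdk8K185. Its gene, Cdk8, encodes the kinase subunit of Mediator, the complex through which transcription factors reach RNA polymerase II. Each library came from a pool of 10 larvae, and totals ran from 9208564 to 11724703 counts. The allele also removes part of the neighboring gene I-2, so that effects of both genes cannot be told apart, and homozygotes reach the pupal stage because of CDK8 and CycC supplied by the mother. Nothing in the labels says whether pools of a genotype came from separate cultures, so that p-values measure the spread between these pools. The labels give neither the sex of the larvae nor a batch. Cdk8 was low in all libraries, at 10.1, 9.53 and 8.83 CPM (counts per 1e+06) across the w1118 libraries and at 4.73, 6.46 and 7.22 across the cdk8K185 libraries. The mutant libraries were lower without overlap but kept a good part of the signal (log2 fold change -0.63, edgeR adjusted p 0.0344), and the call was lost in 7 of 13 alternative fits, namely with library totals, with a replicate block and without any one library other than cdk8K185 replicate 3 (edgeR adjusted p 0.0534 to 0.16). Counts per gene do not show which part of Cdk8 these reads cover. I-2 fell by 2.55 on the log2 scale (edgeR adjusted p 4.55e-05), from between 27.2 and 34.6 CPM to between 5.16 and 5.58 CPM, a call that held in all 13.

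Proteins that are secreted or inserted into membranes enter the ER through the Sec61 channel, fold with the help of chaperones, and leave in vesicles with a COPII coat. Vesicles with a COPI coat bring escaped ER proteins and transport machinery back from the Golgi. When unfolded proteins accumulate, sensors in the ER membrane, namely Ire1, PEK and Atf6, start the unfolded protein response (UPR), which raises the expression of chaperones and lowers translation. Wandering larvae are busy secretors, as the salivary glands make glue and the fat body makes hemolymph proteins at this stage.

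Of the 36 genes, 10 were higher and 0 were lower in cdk8K185 (edgeR, adjusted p under 0.05), or 27.8% of the set. Over all genes tested, 36.9% were called, 19.9% as higher and 17.0% as lower, so the share of called members was lower than the share among all genes. The differences were small, with log2 fold changes (cdk8K185 over w1118) from -0.33 for Sec16 to 0.84 for PEK, and 0 of them reached a change of 2-fold. The median log2 fold change was 0.14, against 0.02 over all genes tested, with 22 values above and 14 below 0. For 20 members, 16 higher and 4 lower, all 3 libraries of one genotype lay above all 3 of the other, or 55.6%, against a background of 53.6% of all genes (29.2% higher and 24.4% lower). Values are given as CPM, that is, counts per 1e+06 on library sizes scaled by the trimmed mean of M values (TMM). Leaving out w1118 replicate 2 or cdk8K185 replicate 3 lowered the count of called members from 10 to 6, while with library totals in place of TMM factors it was 18. Without w1118 replicate 1 the median was 0.07, and without w1118 replicate 3 it was 0.22.

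**Figure D1:**
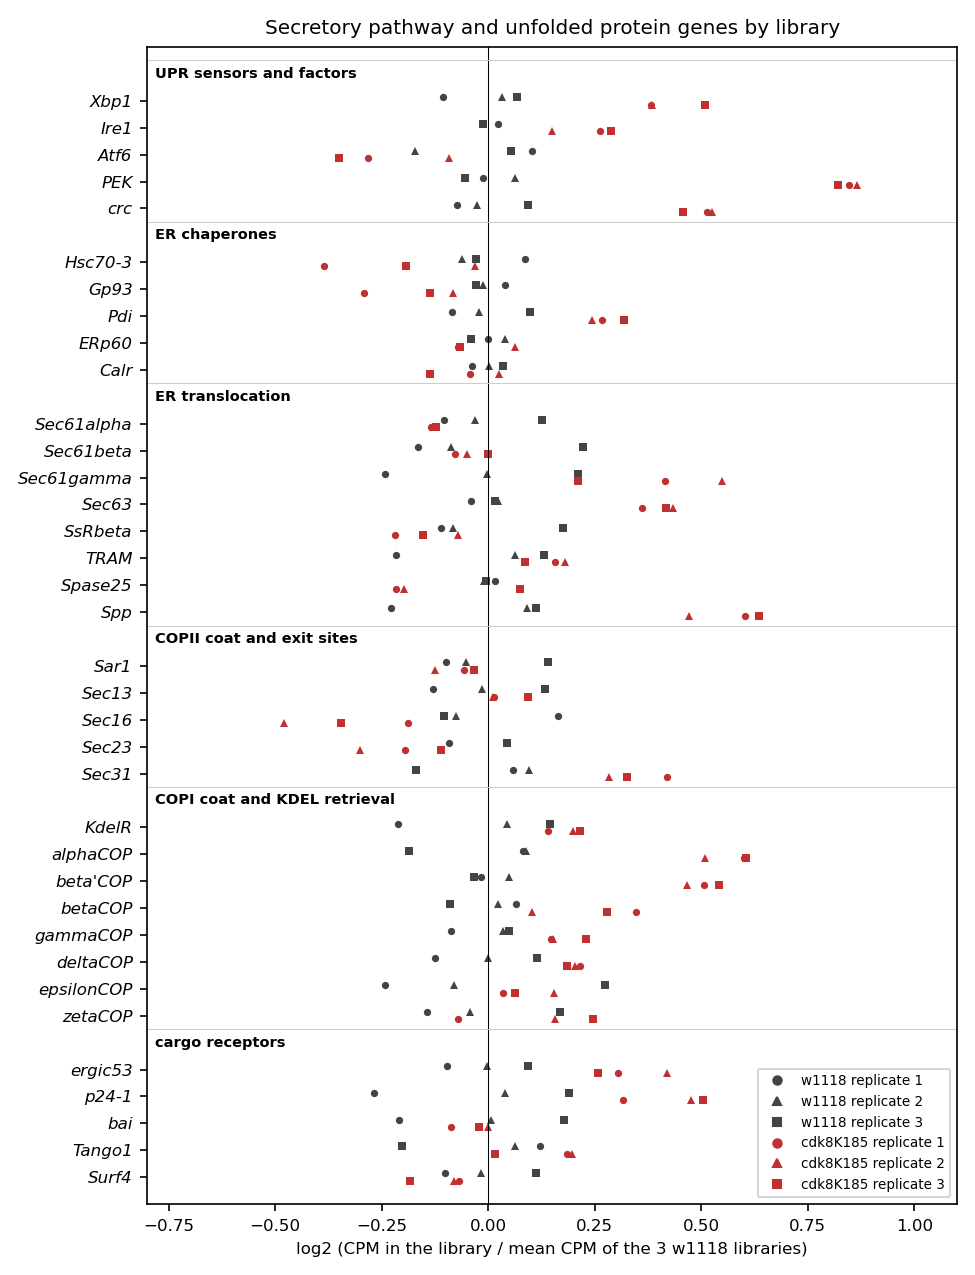
Each point is the log2 ratio of the CPM of a gene in 1 library to the mean CPM of the 3 w1118 libraries, for 36 genes grouped by role, with w1118 in gray and cdk8K185 in red. The 3 red points of PEK, crc, Spp, alphaCOP and beta'COP lie to the right of all gray points, while those of the ER chaperones other than Pdi lie near or left of 0.

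Of 5 sensors and transcription factors of the UPR, 3 rose (60.0%, against 36.9% of all genes called, 19.9% as higher). Among them was PEK, which had the largest difference of the set. PEK (FBgn0037327, 3R:5458563-5464753), the ortholog of the kinase PERK that phosphorylates the translation factor eIF2alpha, stood at 52.8, 55.7 and 51.3 CPM across the w1118 libraries and at 95.8, 97.0 and 94.1 across the cdk8K185 libraries. The mutant libraries all lay far above the control libraries, and each genotype was tightly grouped. Its log2 fold change of 0.84 (SE 0.08 by edgeR, adjusted p 0.000376) amounted to 1.80-fold, and over the alternatives its adjusted p ran from 1.68e-13 with DESeq2 to 0.00305 with edgeR without cdk8K185 replicate 1. The transcription factor gene crc (FBgn0000370, 2L:21310866-21319527), the ortholog of ATF4, whose translation is favored when eIF2alpha is phosphorylated, stood at 208, 215 and 234 CPM across the w1118 libraries and at 313, 315 and 300 across the cdk8K185 libraries. It rose by a log2 fold change of 0.50 (SE 0.09 by edgeR, adjusted p 0.00636). Its exons overlap those of CG46314 on the same strand over 73.5% of their length, and CG46314 had 0 counts in all libraries, so the assignment of reads between these genes is uncertain.

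Xbp1 and Ire1 form the most conserved branch of the UPR, in which the nuclease domain of Ire1 splices the Xbp1 transcript. Xbp1 (FBgn0021872, 2R:21143545-21145750) stood at 438, 482 and 494 CPM across the w1118 libraries and at 614, 616 and 671 across the cdk8K185 libraries, with no overlap. It rose by a log2 fold change of 0.43 (SE 0.11 by edgeR, adjusted p 0.018), and the call was lost without w1118 replicate 2 (edgeR adjusted p 0.0562) and without cdk8K185 replicate 3 (edgeR adjusted p 0.0674). Counts are per gene, so the spliced and unspliced forms of Xbp1 were not told apart. Ire1 stood at 57.3, 55.9 and 55.9 CPM across the w1118 libraries and at 67.6, 62.5 and 68.8 across the cdk8K185 libraries. Its libraries did not overlap either, but its log2 fold change of 0.23 missed the threshold (SE 0.08, edgeR adjusted p 0.057). The remaining sensor, Atf6, is a membrane-bound transcription factor freed by proteolysis in the Golgi. It stood at 100, 83.0 and 96.9 CPM across the w1118 libraries and at 76.8, 87.6 and 73.2 across the cdk8K185 libraries, with overlapping genotypes (log2 fold change -0.24, 95% interval -0.50 to 0.03, edgeR adjusted p 0.134).

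By contrast, 0 of the 5 ER chaperone and folding enzyme genes were called, beside 3 of the 5 sensor and factor genes and 36.9% of all genes. Such genes are classical targets of the UPR in animals. Hsc70-3, which encodes the Hsp70 chaperone BiP, stood at 1010, 913 and 932 CPM across the w1118 libraries and at 728, 932 and 832 across the cdk8K185 libraries. The genotypes overlapped, and the log2 fold change of -0.20 had a 95% interval from -0.50 to 0.11 (edgeR adjusted p 0.261). For Gp93, the ER member of the Hsp90 family, the w1118 libraries lay at 411, 396 and 391 CPM and the mutant libraries below them at 327, 377 and 363 CPM (log2 fold change -0.17, edgeR adjusted p 0.221). Calreticulin (Calr) and the disulfide isomerase ERp60 were nearest to 0, with log2 fold changes of -0.05 and -0.02 and 95% intervals from -0.29 to 0.20 and from -0.26 to 0.21. Only Pdi, the main protein disulfide isomerase, lay on the higher side in all mutant libraries, with 889, 929 and 1009 CPM across the w1118 libraries and 1134, 1115 and 1175 across the cdk8K185 libraries (log2 fold change 0.28, SE 0.11 by edgeR, adjusted p 0.0865). Pdi was called by DESeq2 (adjusted p 0.0212) and with library totals (edgeR adjusted p 0.00977). With library totals, Hsc70-3, Gp93, ERp60 and Calr turned positive, and the median log2 fold change of the 5 genes was 0.17, against 0.24 over all genes. The summed level of the 5 genes was 3704 ± 40.1 CPM for w1118 and 3701 ± 166 CPM for cdk8K185 (mean ± SD, n = 3). That of the 5 sensor and factor genes was 893 ± 37.5 and 1184 ± 21.2 CPM. Whether the sensors and the chaperones differ in their response was not tested.

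**Figure D2:**
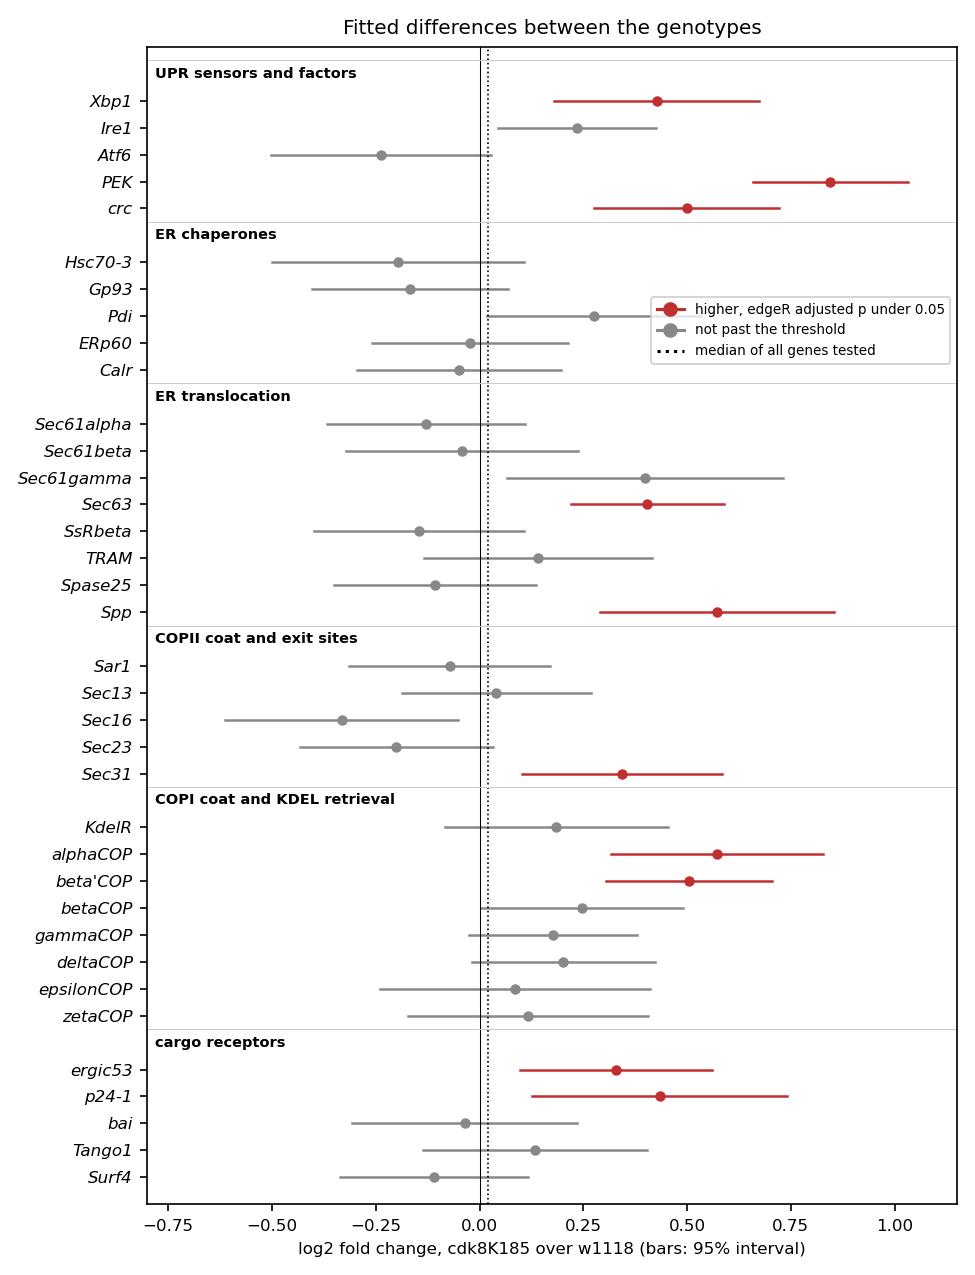
Points are fitted log2 fold changes of cdk8K185 over w1118 with 95% intervals for 36 genes grouped by role, in red where the edgeR adjusted p was under 0.05. The 10 red genes all lie on the higher side, from 0.33 for ergic53 to 0.84 for PEK, and the dotted line marks the median of all genes tested at 0.02.

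Of 8 genes for protein entry into the ER, 2 rose (25.0%, against 36.9% of all genes called, 19.9% as higher). Sec63 (FBgn0035771, 3L:7360561-7364366), a membrane protein that recruits BiP to the channel, stood at 35.4, 37.0 and 36.8 CPM across the w1118 libraries and at 46.8, 49.2 and 48.7 across the cdk8K185 libraries. The libraries of each genotype lay close together and well apart from those of the other (log2 fold change 0.40, SE 0.08 by edgeR, adjusted p 0.00686). An antisense gene, asRNA:CR45835, overlaps 60.7% of its exons, and that gene had at most 2 counts in a library. Spp (FBgn0031260, 2L:542786-544653), the signal peptide peptidase that clears cleaved signal sequences from the membrane, stood at 109, 137 and 139 CPM across the w1118 libraries and at 195, 178 and 199 across the cdk8K185 libraries. It rose by a log2 fold change of 0.57 (SE 0.12 by edgeR, adjusted p 0.00955), and its control libraries were less even than those of Sec63.

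The Sec61 channel itself has 3 subunits, and 0 of them were called. Sec61alpha, which forms the pore, stood at 369, 388 and 432 CPM across the w1118 libraries and at 361, 362 and 364 across the cdk8K185 libraries (log2 fold change -0.13, 95% interval -0.37 to 0.11). Sec61beta was nearer to 0 (log2 fold change -0.04, 95% interval -0.32 to 0.24). Sec61gamma pointed the other way, with 54.4, 64.2 and 74.4 CPM across the w1118 libraries and 85.8, 94.2 and 74.4 across the cdk8K185 libraries. Its replicates 3 of both genotypes were level, its log2 fold change was 0.40 (SE 0.14, edgeR adjusted p 0.0622), and without w1118 replicate 3 it passed at a log2 fold change of 0.53 (edgeR adjusted p 0.0306). The translocon partners TRAM and SsRbeta and the signal peptidase subunit Spase25 had log2 fold changes of 0.14, -0.15 and -0.11 and overlapping genotypes.

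The COPII coat buds vesicles from ER exit sites, and 1 of its 5 genes was called. Sec31 (FBgn0033339, 2R:8893613-8898798), which forms the outer cage with Sec13, stood at 114, 117 and 97.4 CPM across the w1118 libraries and at 146, 133 and 137 across the cdk8K185 libraries (log2 fold change 0.34, SE 0.10 by edgeR, adjusted p 0.036). The call was lost in 5 of 6 fits that each left out 1 library, namely without w1118 replicate 2 or 3 and without any of the mutant libraries (edgeR adjusted p 0.0528 to 0.1). It was also lost with RLE size factors, with at least 10 counts in every library and with a replicate block, in all 8 of 13 alternative fits. Its partner Sec13 averaged 112 ± 10.2 CPM for w1118 and 114.9 ± 3.69 CPM for cdk8K185 (SD, n = 3), a log2 fold change of 0.04. Sec16, the scaffold of exit sites, lay on the other side, with 184.8, 157 and 154 CPM across the w1118 libraries and 145, 118.4 and 130 across the cdk8K185 libraries. The genotypes did not overlap, and its log2 fold change of -0.33 was just short of the threshold (SE 0.12, edgeR adjusted p 0.0639), whereas DESeq2 called it (adjusted p 0.0299). The inner coat gene Sec23 and the GTPase gene Sar1 had log2 fold changes of -0.20 and -0.07 and were not called.

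All 7 subunits of the COPI coat had log2 fold changes above 0, and 2 of them were called higher (28.6%). Over all genes, 36.9% were called in either direction and 19.9% as higher. Over all genes tested, 5480 of 10632 log2 fold changes were above 0. The values of the subunits come from the same libraries and are not independent. alphaCOP (FBgn0025725, 3L:1641066-1645199) stood at 176, 177 and 146 CPM across the w1118 libraries and at 252, 237 and 253 across the cdk8K185 libraries, so that even the lowest mutant library exceeded the highest control library by a wide margin. It rose by a log2 fold change of 0.57 (SE 0.11 by edgeR, adjusted p 0.00655). beta'COP (FBgn0025724, 2L:13378902-13382382) stood at 142, 149 and 141 CPM across the w1118 libraries and at 204, 199 and 209 across the cdk8K185 libraries (log2 fold change 0.50, SE 0.08 by edgeR, adjusted p 0.00393). These 2 proteins form the outer part of the coat together with epsilonCOP, which was not called (log2 fold change 0.09, 95% interval -0.24 to 0.41). Of the 4 adaptor-like subunits of the inner part, betaCOP, gammaCOP and deltaCOP had log2 fold changes of 0.25, 0.18 and 0.20 with no overlap between genotypes, and zetaCOP one of 0.12 with overlap. None of them passed the threshold (edgeR adjusted p 0.0991 to 0.478).

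Levels per length allow subunits of the coat to be set side by side. In w1118 the COPI subunits lay between 37.1 ± 1.88 CPM per kb of exons for gammaCOP and 59.1 ± 4.89 for deltaCOP (SD, n = 3), a 1.59-fold range. In cdk8K185 the range was 1.62-fold, from 42.0 ± 1.37 for gammaCOP to 68.0 ± 0.746 for deltaCOP. Within that range alphaCOP was next to lowest in w1118, at 40.8 ± 4.28 CPM per kb, and stood at 60.6 ± 2.24 in cdk8K185, near betaCOP at 60.9 ± 5.24. The KDEL receptor KdelR, which captures escaped ER chaperones for return in COPI vesicles, stood at 144, 171 and 184 CPM across the w1118 libraries and at 183, 191 and 193 across the cdk8K185 libraries. Its genotypes overlapped at the upper control library (log2 fold change 0.19, 95% interval -0.08 to 0.45, edgeR adjusted p 0.232).

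**Figure D3:**
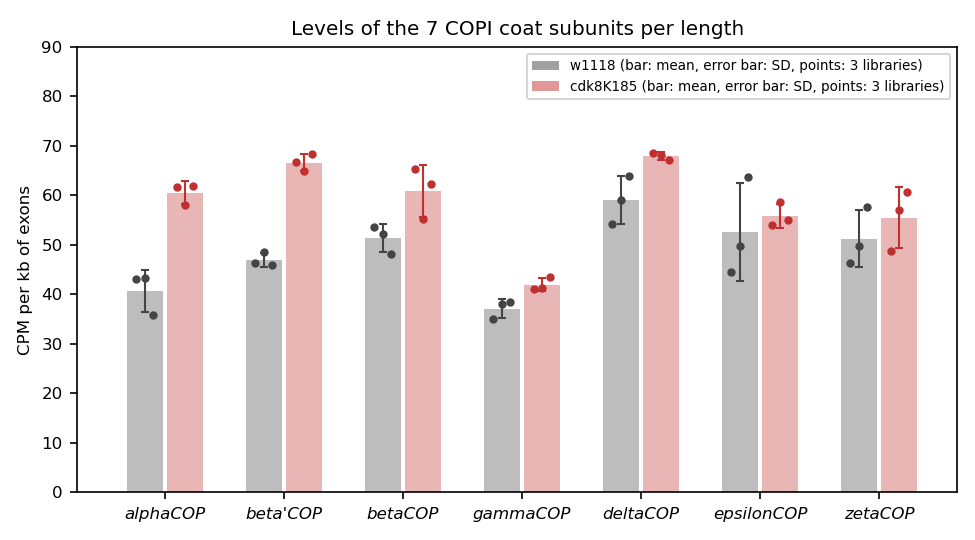
Bars are mean CPM per kb of exons of the 7 COPI coat subunits in w1118 (gray) and cdk8K185 (red), with SD as error bars and the 3 libraries as points. The genotypes are furthest apart for alphaCOP and beta'COP, and the points of epsilonCOP and zetaCOP overlap.

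Of 5 cargo receptor genes, 2 rose (40.0%, against 36.9% of all genes called, 19.9% as higher), and both calls were fragile. The lectin gene ergic53 (FBgn0035909, 3L:8534977-8538013), which carries glycoproteins from the ER to the Golgi, stood at 158, 169 and 180 CPM across the w1118 libraries and at 209, 226 and 202 across the cdk8K185 libraries (log2 fold change 0.33, SE 0.10 by edgeR, adjusted p 0.0356). p24-1 (FBgn0030341, X:11850909-11852530), of the p24 family of vesicle proteins, stood at 53.0, 65.6 and 72.8 CPM across the w1118 libraries and at 79.4, 88.7 and 90.4 across the cdk8K185 libraries (log2 fold change 0.43, SE 0.13 by edgeR, adjusted p 0.0368). For both genes the genotypes did not overlap. However, 5 of 6 fits that each left out 1 library lost each call, the exception being the fit without w1118 replicate 3, with edgeR adjusted p-values up to 0.129 for ergic53 and 0.0922 for p24-1. The ergic53 call was also lost with RLE size factors, with at least 10 counts in every library and with a replicate block. bai, another p24 family gene, and Surf4, a cargo receptor in mammals, were at log2 fold changes of -0.04 and -0.11 with overlapping genotypes.

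Tango1 helps load bulky cargo such as collagen IV into vesicles, and it was compared with 8 genes for basement membrane proteins. Tango1 stood at 136, 131 and 109 CPM across the w1118 libraries and at 142, 143 and 126 across the cdk8K185 libraries (log2 fold change 0.13, 95% interval -0.14 to 0.40). Of the basement membrane genes, 0 were higher and 1 lower (12.5% called, against 36.9% of all genes). That gene was trol, which encodes perlecan (log2 fold change -0.64, SE 0.19 by edgeR, adjusted p 0.0349), with a call that was lost without w1118 replicate 1 or 2 and without cdk8K185 replicate 2 or 3 (edgeR adjusted p 0.0602 to 0.118). The trol call was also lost with library totals. The collagen IV genes Col4a1 and vkg had log2 fold changes of 0.05 and 0.05.

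Per length, the members spanned a 43.4-fold range of levels in w1118. The chaperone and folding genes other than Gp93 led, with Calr at 475 ± 11.96 CPM per kb, Pdi at 405 ± 26.3, ERp60 at 340 ± 9.36 and Hsc70-3 at 265 ± 14.4 (SD, n = 3), and neighbors in this order did not overlap within 1 SD. Xbp1 followed at 220 ± 13.7 CPM per kb, above the channel subunits Sec61alpha at 186 ± 15.3 and Sec61beta at 174 ± 25.5, which did overlap. At the low end stood the sensors Atf6 at 22.9 ± 2.25, Ire1 at 14.0 ± 0.201 and PEK at 10.9 ± 0.458, together with Sec16 at 17.0 ± 1.77 and Sec63 at 12.4 ± 0.291. In cdk8K185 Pdi had the highest mean at 490 ± 13.1 CPM per kb before Calr at 459 ± 25.6, but these overlapped within 1 SD. In cdk8K185 replicate 2 Calr was above Pdi (483 against 479 CPM per kb). PEK at 19.6 ± 0.296 in cdk8K185 was above Ire1 at 16.4 ± 0.819, Sec63 at 16.4 ± 0.433 and Sec16 at 13.5 ± 1.37. Levels of crc and Sec63 per length are uncertain because of the overlaps named above.

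Another 62 genes of the same pathway were listed, of which 60 were tested, and 16 were higher and 7 lower (38.3% against 36.9% of all genes). Spase12 and p24-2 had 0 counts in every library and were not tested, and exons of another gene cover 100% of Spase12 (CG2006, on the opposite strand) and 99.5% of p24-2 (Unc-115b, on the same strand), so that both counts are uncertain. Without cdk8K185 replicate 1 the list gave 13 calls, and without w1118 replicate 2 or cdk8K185 replicate 3 it gave 14. Among 4 further UPR effectors, 3 rose (75.0%, against 36.9% of all genes called, 19.9% as higher). These were trbl, a pseudokinase gene (means of 37.8 ± 2.77 and 59.6 ± 6.43 CPM, SD over 3 libraries; log2 fold change 0.66, SE 0.11 by edgeR, adjusted p 0.00408), Atf3, a bZIP factor gene (log2 fold change 0.38, edgeR adjusted p 0.0339), and PPP1R15, whose product directs dephosphorylation of eIF2alpha (log2 fold change 0.26, edgeR adjusted p 0.0428). The PPP1R15 call was lost in all 6 fits that left out a library (edgeR adjusted p 0.0588 to 0.109), and that of Atf3 without w1118 replicate 1 or 3 and without cdk8K185 replicate 1 or 2 (edgeR adjusted p 0.0686 to 0.0965). Both calls were also lost with DESeq2 and with RLE size factors, and that of PPP1R15 was lost in 11 of 13 alternative fits. Thor, the translation inhibitor 4E-BP, varied too much among mutant libraries to be called, at 889, 705 and 1041 CPM against 686, 735 and 581 CPM (log2 fold change 0.40, edgeR adjusted p 0.107).

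Of 8 genes of ER-associated degradation, which sends misfolded proteins to the proteasome, 1 was higher and 4 were lower (62.5% called, against 36.9% of all genes). Herp, a membrane component of this machinery, rose from 64.2, 76.2 and 85.5 CPM across the w1118 libraries to 155, 143 and 121 across the cdk8K185 libraries (log2 fold change 0.89, SE 0.14 by edgeR, adjusted p 0.0031). TER94, the ATPase that pulls substrates from the membrane, fell from 1134, 1004 and 990 CPM to 654, 717 and 718 CPM by library (log2 fold change -0.58, SE 0.11 by edgeR, adjusted p 0.00728). The ubiquitin ligase gene sip3 (log2 fold change -0.41) and the glycoprotein-sorting genes Edem1 (-0.52) and Edem2 (-0.35) were lower too. With library totals as scaling all 4 decreases lost their calls (edgeR adjusted p 0.0562 to 0.329), and Edem2 was also lost without w1118 replicate 2 and without cdk8K185 replicate 2 or 3 (edgeR adjusted p 0.0589 to 0.0609).

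The largest decrease within the pathway was that of prtp, a folding gene outside the members. Of 15 genes for glycosylation and folding, 4 were higher and 2 lower (40.0% called, against 36.9% of all genes). Their median log2 fold change was 0.06. The higher genes were Ero1L, OstDelta (log2 fold change 0.52), Stt3B (0.37) and NUCB1 (0.37). The ER thioredoxin-domain gene prtp fell from 494, 465 and 508 CPM across the w1118 libraries to 194, 243 and 207 across the cdk8K185 libraries (log2 fold change -1.19, SE 0.12 by edgeR, adjusted p 0.000468), and the prolyl isomerase gene Fkbp14 fell from a mean of 244 ± 31.6 to one of 153 ± 13.1 CPM (SD over 3 libraries; log2 fold change -0.67, SE 0.13 by edgeR, adjusted p 0.00665). Ero1L, the oxidase that recharges protein disulfide isomerases, rose from 29.8 ± 1.64 to 45.5 ± 0.794 CPM on average (log2 fold change 0.61, SE 0.08 by edgeR, adjusted p 0.00169).

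Of 11 tested genes for targeting and translocation, 2 were higher and 1 lower (27.3% called, against 36.9% of all genes). The receptor for the signal recognition particle was higher in both subunits, SrpRalpha (log2 fold change 0.57, SE 0.11 by edgeR, adjusted p 0.00624) and SrpRbeta (log2 fold change 0.41, SE 0.09 by edgeR, adjusted p 0.0139), although the latter was lost without cdk8K185 replicate 1 (edgeR adjusted p 0.0579). The signal peptidase gene twr was lower (log2 fold change -0.39, edgeR adjusted p 0.0242), a call kept without w1118 replicate 1 and lost without each other library (edgeR adjusted p 0.0634 to 0.0882). It was also lost with library totals (edgeR adjusted p 0.259). Among 21 genes for ER to Golgi transport, 6 were higher and 0 lower (28.6%, against 36.9% of all genes called, 19.9% as higher). The higher genes were led by the p24 family gene opm (means of 22.8 ± 2.18 and 43.1 ± 3.596 CPM, SD over 3 libraries, log2 fold change 0.92, SE 0.11 by edgeR, adjusted p 0.000978), the GTPase gene Rab1 (0.40) and the SNARE gene Sec22 (0.37). The calls of Rab1 and Sec22 were lost in 3 and 4 of these refits without 1 library, with edgeR adjusted p-values up to 0.0901 without cdk8K185 replicate 2 and 0.0731 without cdk8K185 replicate 3. CrebA, a bZIP factor that activates secretory genes in fly salivary glands, stood at 81.1, 73.8 and 75.0 CPM across the w1118 libraries and at 76.4, 82.9 and 75.0 across the cdk8K185 libraries (log2 fold change 0.03, 95% interval -0.18 to 0.23, edgeR adjusted p 0.827).

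**Figure D4:**
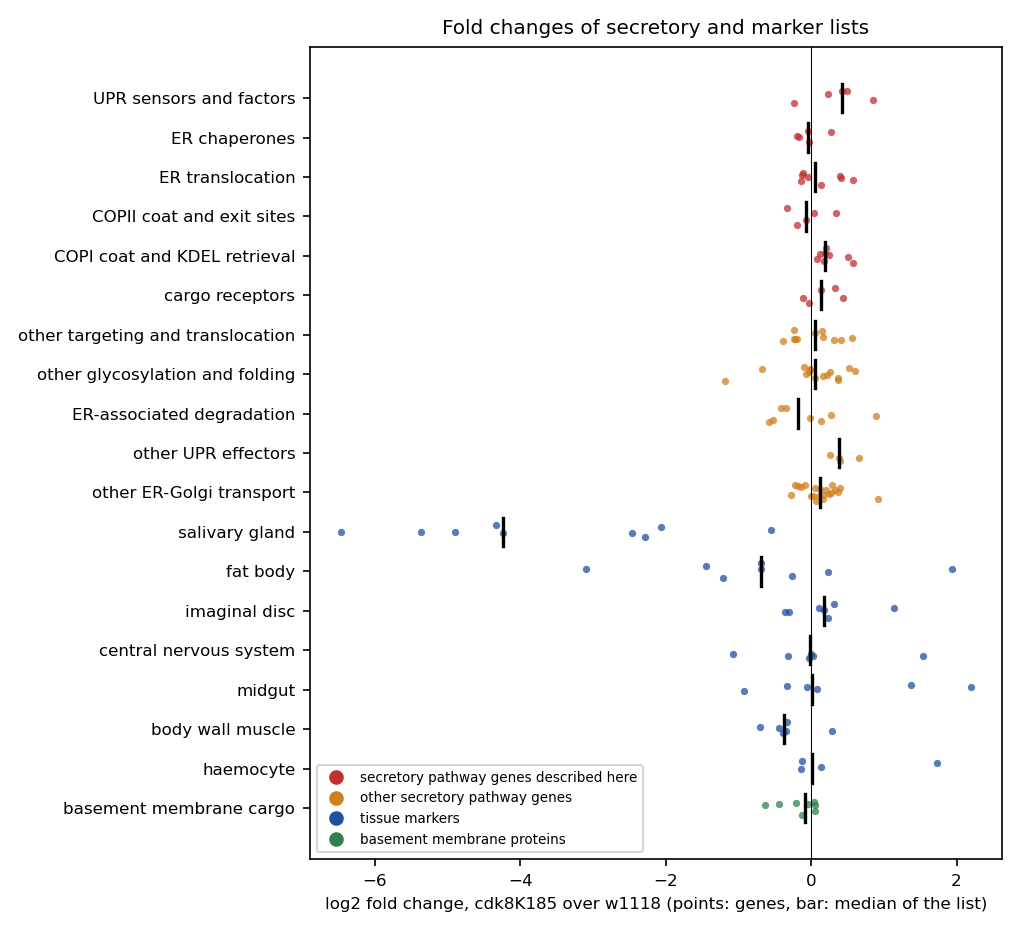
Points are log2 fold changes of cdk8K185 over w1118 of single genes in 19 lists, and black bars are the medians of the lists. Secretory genes (red and orange) lie between -1.19 and 0.92, while the salivary gland markers (blue) reach -6.46.

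Because whole larvae hold many tissues, the same fit was read for markers of 7 tissues. In these bulk libraries, fewer cells of a type and less RNA per cell cannot be told apart. All 9 salivary gland markers were lower, with a median log2 fold change of -4.24, and their summed level ranged from 31075 to 38088 CPM in w1118 and from 2163 to 3323 CPM in cdk8K185. The largest decreases were those of the glue genes Sgs1 (log2 fold change -6.46), Sgs5 (-5.37) and Sgs8 (-4.89). The smallest were those of sage (-2.28), Sgs4 (-2.06) and fkh (-0.55). Most of the summed level came from the 6 Sgs glue genes, with means of 31246 of 34203.5 CPM in w1118 and 2134 of 2697 CPM in cdk8K185. For fat body markers, 3 of 8 were lower, namely Fbp1 (-3.10), Lsp1gamma (-1.45) and apolpp (-1.22), and 1 was higher, Apoltp (1.94). Without w1118 replicate 2 or 3 and without cdk8K185 replicate 2 or 3, Lsp1gamma missed the threshold (edgeR adjusted p 0.07 to 0.0841). Summed levels of the 8 markers ran from 71283 to 77080 CPM in w1118 and from 21375 to 44462 CPM in cdk8K185. Most of this fall came from Fbp1, with means of 35967 of 74294 CPM in w1118 and 4189 of 32962 CPM in cdk8K185. Lsp1beta, one of the markers that passed in neither direction, had a higher mean in cdk8K185 (16834 CPM) than in w1118 (14298 CPM). Of the other tissues, 1 of 7 imaginal disc markers (nub), 2 of 6 midgut markers (Mal-A1 and betaTry) and 1 of 4 hemocyte markers (NimC1) were higher, 0 of 6 body wall muscle markers were called, and the central nervous system gave 1 higher (para) and 1 lower gene (Syt1) of 6. No marker tested was at 0 counts in any library. Among the 36 genes that serve secretion 0 were lower, and the part of these tissue shifts in the members' values was not tested.

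The choice of scaling bears on the members. As a share of all counts in a library, the 36 genes together held 0.781%, 0.772% and 0.768% in w1118 and 0.888%, 1.01% and 1.00% in cdk8K185. On the TMM scale their summed level was 8351 ± 261 CPM for w1118 and 8956 ± 151 CPM for cdk8K185 (mean ± SD, n = 3). With library totals as scaling, the log2 fold changes of all genes shifted upward by a median of 0.22, and 12 of the 14 members below 0 turned positive, all but Atf6 and Sec16.

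The control libraries differed among themselves by transcript length. Across the 36 members, the log2 ratio of w1118 replicate 3 to w1118 replicate 1 fell with the exonic length (Pearson's r = -0.79, Spearman's rho = -0.81, across genes of the same libraries, which are not independent). Of 15 members with exons under 2000 bp, 13 were higher in w1118 replicate 3, with a median log2 ratio of 0.31, and of the 21 longer members 10 were, with a median of -0.02. Over 10529 genes the same ratio gave r = -0.27 and rho = -0.42. Over the members, the other w1118 ratios gave r = -0.57 (replicate 2 to 1) and -0.67 (3 to 2). Ratios of cdk8K185 libraries gave r = -0.41 (replicate 2 to 1), -0.33 (3 to 1) and 0.11 (3 to 2). The differences between genotypes gave weaker correlations with length than the w1118 ratios (r = 0.13 and rho = 0.15 over the members, r = 0.00 and rho = 0.01 over 10587 genes). Of the short members 2 of 15 were called, and of the longer ones 8 of 21, and the part of this length pattern in the calls was not tested.

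**Figure D5:**
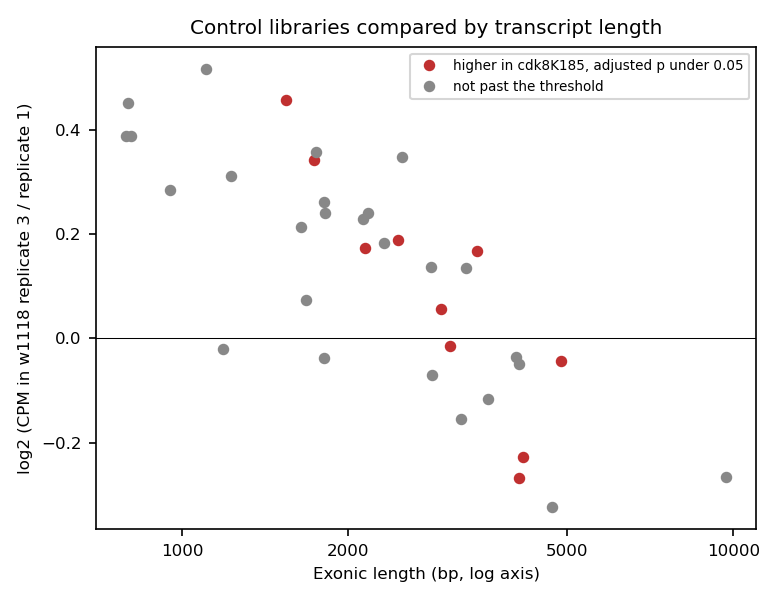
Each point is 1 of the 36 genes, with its exonic length in bp on a log axis and the log2 ratio of its CPM in w1118 replicate 3 to that in w1118 replicate 1, in red where the gene was called higher in cdk8K185. Of the 15 genes under 2000 bp 13 lie above 0, and of the 21 longer genes 10 do.

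In all, 6 of the 10 calls held in each of 13 alternative fits, those of PEK, crc, Sec63, Spp, alphaCOP and beta'COP, and 17 members were called in no fit. Over these fits the highest adjusted p-values of the 6 genes lay between 0.00305 for PEK and 0.0373 for Spp. Without the 2 members whose exons overlap another gene over at least 50% of their length, crc and Sec63, 8 of 34 genes were higher and 0 lower.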

How the data were processed

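Raw counts per gene were deposited by the authors as 1 table, with 1 column for each of the 6 libraries and replicates kept apart. The submitters' processing notes name STAR, featureCounts, DESeq2 and the build dm6. Versions, the annotation release, counting options and the use of strand are not given in the sources used here, so counts of overlapping genes are uncertain. Symbols, coordinates (1-based) and exonic lengths came from the Ensembl annotation of BDGP6, which has dm6 coordinates, release 115. Of 17562 rows, 17477 were annotated. Of the listed symbols, ergic53 and Membrin matched by letter case and Arf1 by synonym.

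Genes passing filterByExpr (minimum count 10, minimum total 15) were tested with edgeR 4.0.16 in R 4.3.3 (glmQLFit and glmQLFTest, robust, TMM), with genotype as sole term, two-sided, and Benjamini-Hochberg adjustment over all genes tested. The SE is the absolute log2 fold change over the square root of F. The test was checked on simulated data with 200 changed genes. It recovered 68.4% of the 2-fold and 85.4% of the 4-fold changes, and 7.45% of its calls were false. Changes under 2-fold, as those of the members were, were not simulated. Counts of members ranged from 342 to 13668 per library, and 3 counts were worth 0.253 to 0.323 CPM. No 2 libraries of a genotype agreed within sampling noise.

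Alternatives were DESeq2 1.42.0, limma-voom (limma 3.58.1), RLE size factors, library totals, 2 other filters on low counts, a replicate block, an adjusted p under 0.01 and leaving out each library. Leaving out members with exon overlap was added after seeing the data. Members and gene lists were chosen with earlier results of these data known, so no test was run over a list. Named genes were all members, CrebA, Cdk8, I-2, CycC (not called, log2 fold change 0.10), up to 3 genes with the largest change in each other list, and those behind small counts. Col4a1, vkg, Thor, sage, Sgs4, fkh, Lsp1beta, OstDelta, Stt3B, NUCB1, Sec24AB and Sec24CD were named after their values were seen.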

Additional observations from a re-analysis of the deposited data

How the results depend on the processing

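The lowest count of a member in a library was 342, and each genotype had 3 libraries. Over 468 refits of single members, 414 kept direction and side of the threshold, 23 lost a call, 12 gained one and 19 changed sign. Scaling mattered most. With library totals, 18 members were called, the median rose to 0.35 (0.24 over all genes), the share of higher genes among all called moved from 53.9% to 74.2%, the split of the other pathway genes became 27 higher and 2 lower, and the sign turned for Hsc70-3 (0.024), Gp93 (0.052), ERp60 (0.19), Calr (0.17), Sec61alpha (0.091), Sec61beta (0.18), SsRbeta (0.076), Spase25 (0.11), Sar1 (0.15), Sec23 (0.018), bai (0.19) and Surf4 (0.11). The median of all genes shifted by 0.22 under it. CrebA turned to -0.014 with DESeq2, -0.013 with RLE size factors and -0.0034 with at least 10 counts in every library. At an adjusted p under 0.01, 2111 genes, 6 members and 11 other pathway genes were called.

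Leaving out 1 library gave 6 to 10 called members, 13 to 17 other pathway genes and 2746 to 3844 genes in all. Uncalled members near 0 changed sign within these fits, with ranges of -0.063 to 0.022 for ERp60, -0.082 to 0.015 for Calr, -0.12 to 0.098 for Sec61beta, -0.12 to 0.019 for Sar1, -0.021 to 0.13 for Sec13, -0.023 to 0.26 for epsilonCOP, -0.13 to 0.076 for bai and -0.013 to 0.077 for CrebA. Groups share only replicate numbers. Deviations of same-numbered libraries correlated at -0.19, 0.51 and 0.56. Replicates 2 and 3 of both genotypes correlated best with their own number, and between these 2 numbers the correlations were -0.61 and -0.59. Since replicate 1 did not follow its number in either genotype, the numbers were not taken to pair libraries. Whether they mark a batch was not tested. With the replicate block, 8 members (8 higher, 0 lower), 17 other pathway genes and 3988 genes were called, the members' median was 0.14, and w1118 replicate 1 did not correlate best with its own number.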
